A study of Mus musculus with 8 samples.

Results

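The circadian clock genes described here are 10 genes taken by symbol from the count table, Per1, Per2, Per3, Cry1, Cry2, Nr1d1, Nr1d2, Dbp, Npas2 and Clock, out of 22244 genes in the table. They were listed by name, with earlier results on these libraries known. RNA came from the right cranial lung lobes of adult male C57BL/6J mice. The 4 control mice are labelled as untreated and the other 4 were injected with naphthalene, and each mouse gave 1 library. Neither group is described as carrying any engineered allele. Naphthalene is an aromatic hydrocarbon that airway club cells turn into toxic products, which makes it a common way to injure the airway lining. The sources used here give neither its dose and vehicle nor the interval from injection to sampling nor the time of day. If the groups were taken at different times of day, that cannot be told apart from the treatment, and the same holds for effects of handling and vehicle.

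The circadian clock is a transcription loop that runs in most cells of the lung, airway epithelium included. CLOCK or its relative NPAS2 pairs with BMAL1 and activates, through a sequence called the E-box, the genes of its own inhibitors, the PER and CRY proteins, together with the nuclear receptor genes Nr1d1 and Nr1d2 and the output factor gene Dbp. The products of Nr1d1 and Nr1d2, called REV-ERB alpha and beta, repress genes that carry a ROR element, among them Bmal1, Npas2, Cry1 and Nfil3, while ROR proteins activate them. In a running clock Bmal1 and Nr1d1 therefore peak at opposite times of day. Apart from the loop, Per1 is a direct target of the glucocorticoid receptor and of the cAMP-responsive factor CREB, and glucocorticoids, feeding and body temperature are known to reset clocks in peripheral organs.

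Promoters are shown here for clock genes that differed between the groups and carry a motif through which the loop is known to work. RefSeq promoter windows on GRCm38.p6, running from 250 bases before to 50 bases after a gene's start, were found for 9 of the 10 members, all but Per2. Each window was searched on both strands for the E-box CACGTG, for a ROR element spelled TAGGTCA or TGGGTCA, for the D-box TTATGTAA or TTACGTAA, to which DBP and its relatives bind, for the CREB motif TGACGTCA and for the glucocorticoid receptor motif ACANNNTGT. None of these spellings holds another, and any overlap between matches was allowed. Among the 9 members an E-box stood in Per1 and Cry1 and a D-box in Per3, and no member window held the other motifs in these spellings. For all 32851 windows of this length in the table, 7.15% held the E-box, 6.45% a ROR element, 1.06% a D-box, 1.79% the CREB motif and 6.85% the glucocorticoid receptor motif. Nfil3, a clock output gene outside the member list, held a ROR element on the opposite strand. Some clock genes that did not pass the test below held motifs too. Tef, Bhlhe41 and Ciart held an E-box, Bmal1 a ROR element and Hlf the CREB motif. Whether motifs go with the changes was not tested. The 250 bases before the start are printed below with the motif in capitals. A match is a run of letters and not a measured binding site.

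Per1, chr11:69098699-69098948, plus strand: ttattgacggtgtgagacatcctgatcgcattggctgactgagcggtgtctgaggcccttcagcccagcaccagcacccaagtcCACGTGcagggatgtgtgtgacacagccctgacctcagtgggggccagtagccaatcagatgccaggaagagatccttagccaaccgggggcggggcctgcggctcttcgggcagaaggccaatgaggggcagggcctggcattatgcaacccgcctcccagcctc

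Cry1, chr10:85185055-85185304, minus strand: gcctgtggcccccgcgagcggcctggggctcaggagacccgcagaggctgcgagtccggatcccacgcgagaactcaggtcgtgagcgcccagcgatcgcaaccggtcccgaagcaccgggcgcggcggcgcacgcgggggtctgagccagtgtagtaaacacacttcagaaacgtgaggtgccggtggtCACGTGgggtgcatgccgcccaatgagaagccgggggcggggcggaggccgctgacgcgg

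Per3, chr4:151044666-151044915, minus strand: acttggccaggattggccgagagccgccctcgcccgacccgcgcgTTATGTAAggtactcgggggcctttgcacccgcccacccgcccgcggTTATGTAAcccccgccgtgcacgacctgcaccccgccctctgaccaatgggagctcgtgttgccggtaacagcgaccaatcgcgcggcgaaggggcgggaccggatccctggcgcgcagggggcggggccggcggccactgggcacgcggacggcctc

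Nfil3, chr13:52981040-52981289, minus strand: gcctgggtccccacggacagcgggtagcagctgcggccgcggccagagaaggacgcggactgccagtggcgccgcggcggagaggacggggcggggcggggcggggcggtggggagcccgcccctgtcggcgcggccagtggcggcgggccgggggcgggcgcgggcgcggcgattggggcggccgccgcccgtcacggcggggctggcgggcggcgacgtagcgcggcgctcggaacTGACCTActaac

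In Per1 the E-box began at position -166 from the start of transcription, in Cry1 at -60. The Per3 window held 2 copies of TTATGTAA, at -205 and -158, and the ROR element of Nfil3 began at -12. Another RefSeq start of Per1 and all windows found for Clock, Cry2, Nr1d1, Nr1d2, Dbp and Npas2 held none of the motifs. Many known clock elements lie further from the start or within introns, outside these windows.

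Npas2 and Per2 could not be described, because both were listed at 0 counts in all 8 libraries. Both genes lie on chromosome 1, where 1138 of 1150 protein-coding genes of the table (98.96%) were at 0 in every library. On chromosomes 2 to 19 the share was 5.05%, from 0.399% to 11.5% by chromosome. It was 20.6% on X and 90.2% on Y. The zeros on chromosome 1 therefore give no level for Npas2 or Per2, and 8 of the 10 members were tested. Atf3, Coq10b, Cxcr2 and Marco, which stood in other lists used here, lie on the same chromosome and were also at 0.

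**Figure D1:**
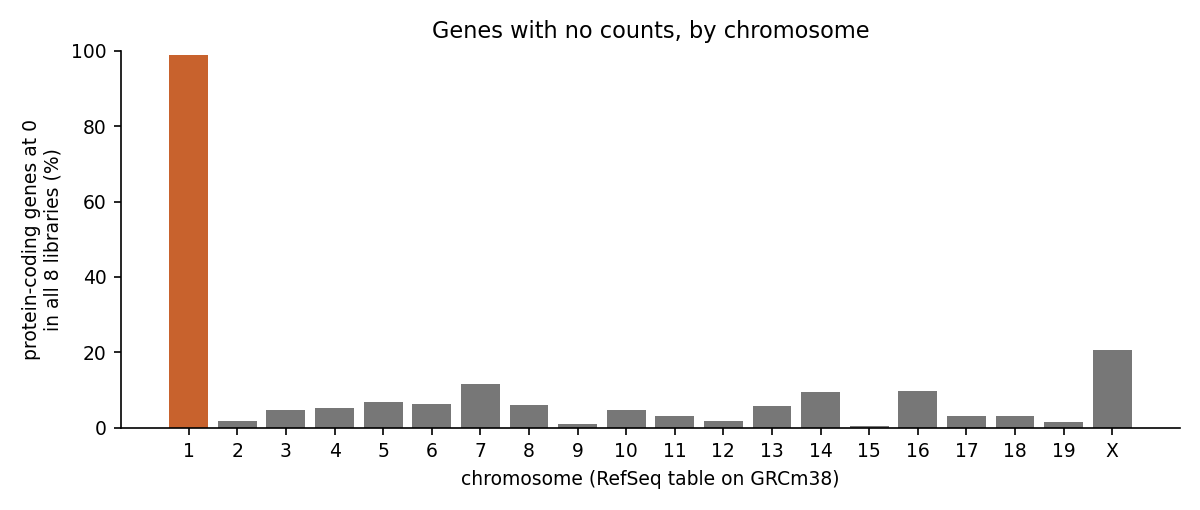
Share of protein-coding genes (percent, y axis) with 0 counts in all 8 libraries, by chromosome (x axis, chromosomes of the RefSeq table on GRCm38). Chromosome 1, which holds Npas2 and Per2, stands at 98.96%, and no chromosome from 2 to 19 is above 11.5%. X stands at 20.6%, and Y, at 90.2%, is not drawn.

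Libraries held 10743842 to 16792306 counts, and 14192 genes had enough to be tested. Levels below are read counts scaled to a common library size (CPM) adjusted between libraries by the TMM method, as mean ± SD with n = 4 per group, and fold changes are naphthalene against control with their standard error (SE). Lung markers were high in both groups, with summed alveolar type 2 marker levels of 11861 to 14446 CPM in controls and 12906 to 16266 after naphthalene. Of the markers of neighbouring tissues, 3 adipose genes summed to 15.5 to 30.4 and 16.1 to 23.99 CPM, 4 muscle genes to 78.8 to 325 and 122 to 254 CPM, and none of them passed, while the 4 thymus genes had too few counts to test. The muscle sum was mostly Myh6, a heart myosin gene, at 50.7 to 176 CPM in controls and 68.4 to 177 CPM after naphthalene. Naphthalene 1 stood apart in skeletal muscle genes: Acta1, left out of testing by the filter, had 995 counts there against 5 to 27 in the other naphthalene libraries and 0 to 4 in controls, and Ckm was at 18.7 CPM there against at most 6.09 CPM elsewhere. Without naphthalene 1 the same 5 members passed in the same directions. Calls without control 3 and naphthalene 1, a pair that earlier work on these libraries also left out, are given where they differ.

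Of the 8 members tested, 2 were higher after naphthalene and 3 were lower at an adjusted p of 0.05 (edgeR quasi-likelihood test, Benjamini-Hochberg over all tested genes). Cry1 and Per1 rose, and Nr1d1, Dbp and Per3 fell. Clock, Cry2 and Nr1d2 did not pass. Across all tested genes 28.7% passed, 14.1% higher and 14.6% lower, so the 5 of 8 members stand against that background. CPM did not overlap between the groups for 3 of the 8 members, Cry1, Per1 and Nr1d1, against 28.6% of all tested genes. The median log2 fold change of the 8 was -0.08, with 4 values above and 4 below 0, against 0.01 over all tested genes. Because the members were chosen with earlier results known, these counts are a description and not a test of the list. Effects in bulk tissue cannot separate fewer cells of a type from less RNA per cell, and that holds for every gene below.

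**Figure D2:**
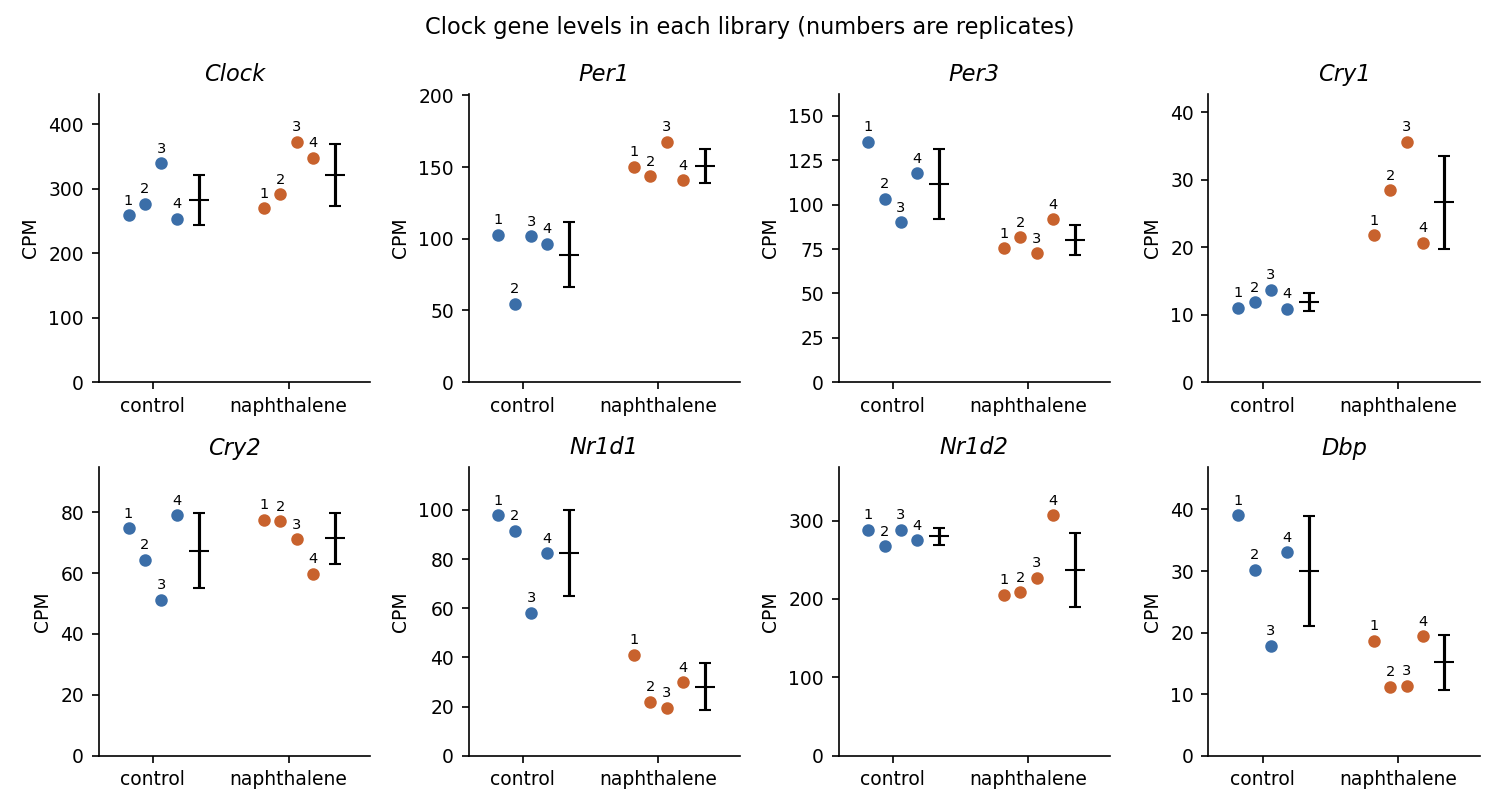
TMM-scaled CPM (y axes, from 0) of the 8 tested members in 4 control and 4 naphthalene libraries. Points are libraries with their replicate number, and black bars are mean ± SD. Cry1 and Per1 are higher and Nr1d1 lower in all 4 naphthalene libraries, Per3 and Dbp overlap slightly, and Clock, Cry2 and Nr1d2 overlap, Nr1d2 through naphthalene 4 alone.

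Among the activators, Clock, which encodes the DNA-binding partner of BMAL1, stood at 259, 277, 339 and 254 CPM in controls 1 to 4 and at 269.9, 291, 373 and 348 CPM in naphthalene 1 to 4. The groups overlapped, with control 3 above naphthalene 1 and 2. Its log2 fold change was 0.18 (SE 0.14, edgeR adjusted p = 0.322). Without control 3 and naphthalene 1 together it was 0.36 with an adjusted p of 0.0262. Bmal1, the gene of the obligate partner, ran from 37.02 to 46.6 CPM in controls and from 36.5 to 45.4 CPM after naphthalene, so that its ranges were nearly the same. Its means were 40.8 ± 4.10 and 39.9 ± 4.04 CPM, a log2 fold change of -0.03 (SE 0.10, edgeR adjusted p = 0.859). Over 18 alternative fits the value for Bmal1 stayed between -0.10 and 0.04. Bmal2, a Bmal1 relative, was at 3.56 ± 0.910 and 4.05 ± 0.457 CPM and did not pass (edgeR adjusted p = 0.536).

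Per1, a core repressor gene that also answers directly to glucocorticoids, stood at 103, 54.8, 102 and 96.4 CPM in controls and at 150.3, 144, 168 and 141 CPM after naphthalene. All 4 naphthalene libraries were above all 4 controls, and control 2 lay well below the other controls. Per1 rose 1.69-fold (edgeR log2 fold change 0.76 with SE 0.23, adjusted p = 0.00759). Per3, the period gene with the weakest known role in the loop, stood at 136, 103, 89.98 and 118 CPM in controls and at 75.5, 81.8, 72.6 and 91.7 CPM after naphthalene. Only naphthalene 4 exceeded the lowest control, control 3. Per3 fell 1.39-fold (edgeR log2 fold change -0.47 with SE 0.15, adjusted p = 0.0185). That call was lost without control 1 (adjusted p = 0.0583), control 4 (0.0553) or naphthalene 3 (0.0563).

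Cry1, the cryptochrome gene whose product represses CLOCK and BMAL1 most strongly and whose expression is late in the cycle, stood at 11.03, 11.8, 13.7 and 10.9 CPM in controls and at 21.8, 28.5, 35.7 and 20.7 CPM after naphthalene. The lowest naphthalene library was above the highest control, and naphthalene 2 and 3 were the highest of all. Cry1 rose 2.25-fold (edgeR log2 fold change 1.17 with SE 0.20, adjusted p = 0.000794). Its paralogue Cry2 stood at 74.8, 64.4, 51.3 and 79.1 CPM in controls and at 77.6, 77.1, 71.2 and 59.8 CPM after naphthalene. The Cry2 groups overlapped almost wholly, with a log2 fold change of 0.08 (SE 0.16, edgeR adjusted p = 0.683).

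Nr1d1, which encodes REV-ERB alpha, showed the largest change of the members. It stood at 97.9, 91.6, 58.3 and 82.4 CPM in controls and at 41.1, 21.9, 19.5 and 29.9 CPM after naphthalene. No naphthalene library reached the lowest control, control 3, and naphthalene 1 was nearest to it. Nr1d1 fell 2.93-fold (edgeR log2 fold change -1.55 with SE 0.29, adjusted p = 0.000693), and without control 3 and naphthalene 1 the log2 fold change was -1.93. Nr1d2, for REV-ERB beta, stood at 288, 267, 289 and 275 CPM in controls and at 205, 209, 227 and 307 CPM after naphthalene. Naphthalene 1, 2 and 3 were below every control and naphthalene 4 above every control. Its log2 fold change was -0.24 (SE 0.14, edgeR adjusted p = 0.182), and without naphthalene 4 it was -0.39 with an adjusted p of 0.00559. Nr1d1 shares sequence with Thra, the thyroid hormone receptor alpha gene on the opposite strand: 263 of 3077 exon bases (8.55%) overlap in GENCODE M21. The sources used here do not state whether counting used strand, so how reads in the shared part were counted is not known. Thra itself fell, from 121 ± 19.7 to 77.3 ± 23.7 CPM (edgeR log2 fold change -0.64 with SE 0.24, adjusted p = 0.0278). The difference between the changes of Thra and Nr1d1 was not tested.

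Dbp, a transcription factor gene driven by CLOCK and BMAL1 that passes the rhythm on to other genes, stood at 39.1, 30.2, 17.8 and 33.01 CPM in controls and at 18.7, 11.2, 11.3 and 19.4 CPM after naphthalene. Control 3 lay below naphthalene 1 and 4, and the other controls lay above every naphthalene library. Dbp fell 1.98-fold (edgeR log2 fold change -0.99 with SE 0.33, adjusted p = 0.0131). Tef and Hlf, the other members of its protein family, did not pass. Tef was at 260.1 ± 36.9 and 321 ± 15.6 CPM, with the 4 naphthalene libraries just above the controls (edgeR log2 fold change 0.31 with SE 0.11, adjusted p = 0.0572). It passed as higher in 5 of 18 alternative fits. Hlf was at 21.3 ± 5.45 and 23.5 ± 1.77 CPM (edgeR log2 fold change 0.14 with SE 0.19, adjusted p = 0.553). The difference between Dbp and these relatives was not itself tested.

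Effects within families of related members were compared through the log2 ratio of paralogues in each library, by exact 2-sided permutation of 4 against 4 libraries. Of 6 pairs planned, 3 included a gene listed at 0 and 3 were tested. The Cry1/Cry2 log2 ratio moved from -2.48 ± 0.428 to -1.44 ± 0.344, a difference of 1.03 (SE 0.27). For Per1/Per3 it moved from -0.35 ± 0.449 to 0.91 ± 0.251, a difference of 1.26 (SE 0.26). The Nr1d1/Nr1d2 ratio moved from -1.79 ± 0.357 to -3.11 ± 0.542, a difference of -1.32 (SE 0.32). Groups did not overlap for any of the 3 ratios, and each gave an exact permutation p of 0.0286, also 0.0286 when adjusted over the 3 pairs, which is the smallest value 4 against 4 allows. In each tested pair the ratio thus shifted by more than the spread between libraries. The members were chosen with earlier results on these libraries known, so these values describe the pairs and are not independent evidence.

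Levels were also divided by the joined length of all annotated exons of a gene (CPM per kilobase of GENCODE M21 exon). This length can exceed that of the transcripts present, so the order of genes depends in part on annotation. On this scale Nr1d2 was the most abundant member in controls at 51.7 ± 1.93, followed by Nr1d1 at 26.8 ± 5.65 and Clock at 20.6 ± 2.86. Nr1d1 and Clock overlapped there. Clock and Per1, at 15.8 ± 4.08, did not overlap. Per1, Per3 at 11.6 ± 2.03, Cry2 at 10.7 ± 1.96 and Dbp at 10.03 ± 2.99 overlapped each with the next, and Cry1 was lowest at 3.55 ± 0.389, apart from all of them. After naphthalene the order of these length-corrected levels was Nr1d2 (43.8 ± 8.82), Per1 (26.8 ± 2.14), Clock (23.3 ± 3.50), Cry2 (11.3 ± 1.31), Nr1d1 (9.13 ± 3.16), Per3 (8.37 ± 0.880), Cry1 (7.98 ± 2.07) and Dbp (5.07 ± 1.503). Per1 and Clock overlapped, as did each neighbouring pair from Cry2 down to Dbp, whereas Nr1d2 and Per1, and Clock and Cry2, did not.

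The rest of the pathway was followed in a list of 19 other clock genes, all of which were tested. By edgeR, 4 were higher after naphthalene, 0 were lower and 15 did not pass, with a median log2 fold change of 0.06. Across all tested genes 14.1% were higher and 14.6% lower. At an unadjusted p of 0.05, 5 were higher and 3 lower, and among other tools limma voom called 1 lower, voom with quality weights 2 and DESeq2 1. Nfil3, a repressor that competes with DBP for the D-box and whose gene is repressed by REV-ERB, stood at 6.10, 6.68, 9.40 and 8.67 CPM in controls and at 14.4, 17.2, 25.5 and 11.6 CPM after naphthalene. Groups did not overlap, and the order of the naphthalene libraries was that of Cry1. Nfil3 rose 2.22-fold (edgeR log2 fold change 1.15 with SE 0.28, adjusted p = 0.00453).

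Bhlhe40, a repressor that competes for E-boxes, rose from 39.1 ± 2.82 to 50.99 ± 2.41 CPM (edgeR log2 fold change 0.39 with SE 0.06, adjusted p = 0.00871). All 4 naphthalene libraries were above all 4 controls. Rorb, a ROR activator gene, was near the lower limit of counting at 0.791 ± 0.277 and 2.04 ± 1.22 CPM (edgeR log2 fold change 1.33 with SE 0.40, adjusted p = 0.0377). Its call was lost without any single control (adjusted p 0.0502 to 0.105) or without naphthalene 3 (0.103).

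Genes that did not pass included Rora, the widely expressed ROR gene, at 279 ± 13.4 and 233 ± 29.8 CPM (edgeR log2 fold change -0.26, adjusted p = 0.0783). Bhlhe41, the relative of Bhlhe40, was at 21.9 ± 2.53 and 15.7 ± 3.90 CPM (edgeR log2 fold change -0.48, adjusted p = 0.0561) and passed as lower in 7 of 18 alternative fits. Rora passed as lower without naphthalene 4 and with quality weights. Ciart, a repressor of CLOCK and BMAL1 with 3 E-boxes in its window, was at 8.84 ± 1.39 and 7.69 ± 1.12 CPM (edgeR log2 fold change -0.20, adjusted p = 0.381). Among genes for kinases, ubiquitin ligases and a deubiquitinase that set the lifetime of clock proteins, Csnk1d, Csnk1e, Csnk1a1, Btrc, Fbxw11, Fbxl21 and Usp2 did not pass, with log2 fold changes from -0.44 for Usp2 to 0.17 for Csnk1a1. Without control 3 and naphthalene 1, Usp2 passed as lower (-0.61, edgeR adjusted p = 0.0280) and Csnk1a1 as higher (0.26, adjusted p = 0.0462), and Usp2 also passed without naphthalene 1 (adjusted p = 0.0494). At an unadjusted p of 0.05, 1 of these 7 was lower, Usp2.

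**Figure D3:**
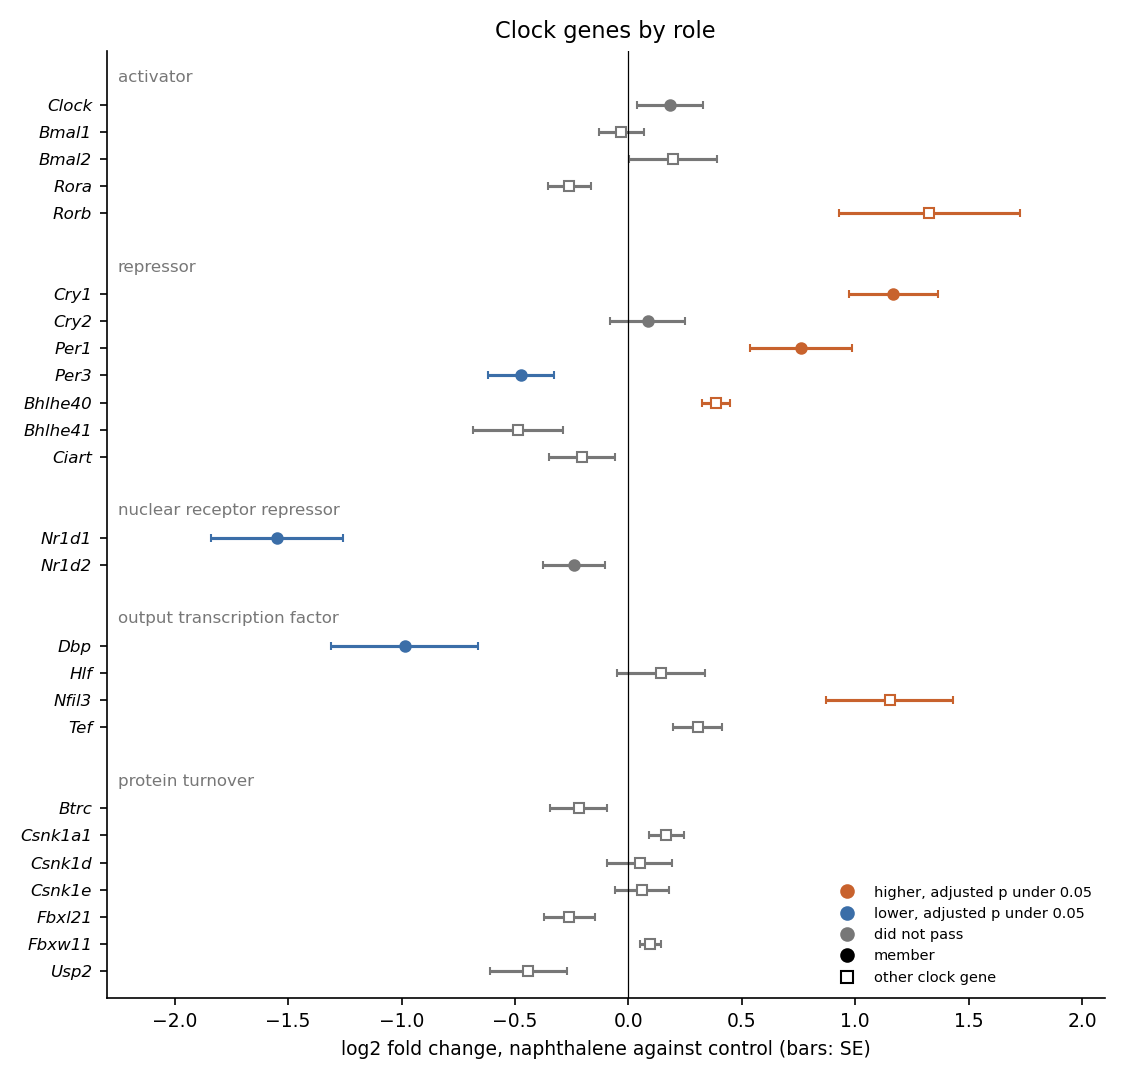
Log2 fold change, naphthalene against control (x axis), of tested clock genes grouped by role, with bars of 1 SE. Filled circles are members and open squares other clock genes, coloured where the edgeR adjusted p was under 0.05. Nr1d1 (-1.55) and Dbp (-0.99) lie furthest to the left, and Rorb (1.33), Cry1 (1.17) and Nfil3 (1.15) furthest to the right.

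Clock genes were also grouped by the element that is known to drive them. Of 11 tested E-box-driven genes, 3 fell (Nr1d1, Dbp and Per3) and 1 rose (Per1), against the 28.7% of all tested genes that passed, with a median log2 fold change of -0.24. Among genes driven through ROR elements, Cry1 and Nfil3 rose, with log2 fold changes of 1.17 and 1.15, and Clock and Bmal1 stood at 0.18 and -0.03 without passing. Both groups hold genes already described above and were assembled with earlier results known, so their counts are no further evidence. The counts also depend on how genes were placed. Cry1, which rose, was placed by its ROR element alone, although CRY genes are also activated through E-boxes and its window held an E-box. Bhlhe40, which rose, was in neither group, while its relative Bhlhe41 was in the E-box group. The E-box group was not uniform, since Per1 rose while Tef, Hlf, Cry2, Ciart, Bhlhe41, Usp2 and Nr1d2 did not pass.

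Ratios within a library remove the scaling between libraries and are given as a description. The log2 ratio of Bmal1 to Nr1d1 was -1.40, -1.22, -0.32 and -1.02 in controls 1 to 4 and 0.14, 0.88, 0.90 and 0.31 in naphthalene 1 to 4. The sign of this ratio depends on gene length, which it does not correct for. Per kilobase of exon, Nr1d1 was above Bmal1 in both groups, at 18.9 to 31.8 against 4.92 to 6.19 CPM in controls and at 6.34 to 13.3 against 4.85 to 6.03 CPM after naphthalene. For Cry1 to Dbp the log2 ratio was -1.81, -1.34, -0.38 and -1.59 in controls and 0.22, 1.33, 1.64 and 0.09 after naphthalene. In both ratios control 3 was the control nearest to the naphthalene libraries, and naphthalene 2 and 3 were the furthest from the controls. The Bmal1 to Dbp ratio overlapped, with control 3 at 1.38 and the naphthalene libraries at 0.94 to 1.84.

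**Figure D4:**
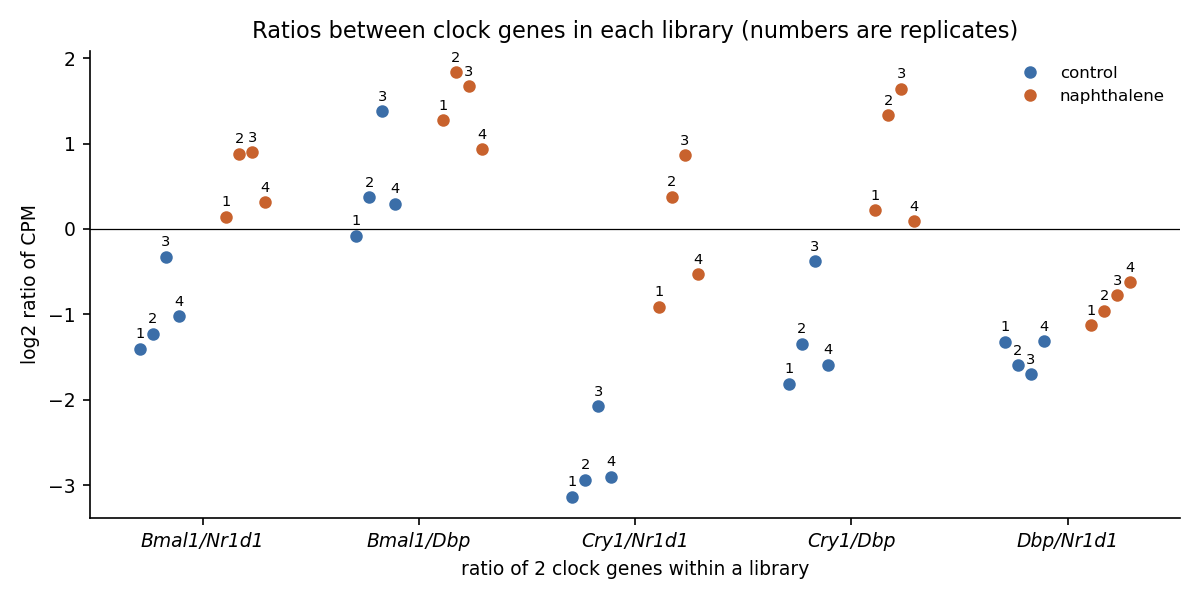
Log2 ratio of the CPM of 2 clock genes (y axis) within each library, for 5 gene pairs (x axis). Points are libraries with their replicate number, 4 controls and 4 naphthalene. Cry1/Nr1d1, Cry1/Dbp and Bmal1/Nr1d1 separate the groups, on a scale not corrected for gene length, and in Bmal1/Dbp control 3 lies among the naphthalene libraries.

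Known inputs to the clock were followed in lists of their target genes. These lists were chosen with earlier results on these libraries known. Their counts beside the share of all tested genes are therefore a description and not a test of a list. Of the glucocorticoid targets, Pdk4 also counts as fasting-responsive and Tsc22d3 as a rhythmic gene. Of 14 tested glucocorticoid receptor targets 13 rose, against 14.1% of all tested genes, and the median change of the 14 was 1.54 on the log2 scale. Among them were Sult1a1, a sulfotransferase gene (49.1 ± 4.85 to 124 ± 5.53 CPM), the kinase gene Map3k6 (log2 fold change 2.29), Pdk4, which restrains glucose oxidation (2.26), and the metallothionein gene Mt2 (3.71). Summed over the 14 genes, levels were 1079, 866, 1336 and 1096 CPM in controls 1 to 4 and 2033, 2434, 2896 and 2416 CPM in naphthalene 1 to 4. All 4 naphthalene sums were above all 4 control sums. The part of glucocorticoid signalling in the clock changes was not tested.

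Of 11 tested CREB targets and immediate early genes, Junb rose (56.4 ± 16.3 to 95.8 ± 14.7 CPM, edgeR adjusted p = 0.0106), Nr4a1 fell (65.3 ± 19.99 to 38.7 ± 11.1 CPM, adjusted p = 0.0288) and 9 did not pass. By the same test 28.7% of all tested genes passed. Their summed level was 507 to 795 CPM in controls and 551 to 779 CPM after naphthalene. Of 9 tested temperature-responsive genes 8 rose, against 14.1% of all tested genes, with a median log2 fold change of 0.996. Dnajb1, a heat shock co-chaperone gene, went from 46.7 ± 12.5 to 94.2 ± 7.97 CPM and Rbm3, a cold-inducible RNA-binding protein gene, from 144 ± 10.9 to 288 ± 83.3 CPM. The chaperone genes Hspa8 and Hsph1 rose by 0.72 and 0.62 on the log2 scale. Among the genes that rose, Rbm3 was the only cold-inducible one, and Cirbp, the other cold-inducible gene of the list, did not pass. Of 9 tested fasting-responsive genes 5 rose, against the same 14.1%, among them Angptl4, a lipase inhibitor gene (21.1 ± 3.95 to 122 ± 15.1 CPM), Pdk4, Acot2 and Acot1, with a median of 0.36. Whether temperature or food intake had a part in the clock changes was not tested.

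Among 5 tested genes that are rhythmic in many organs, 3 rose, against 14.1% of all tested genes. This list too was chosen with earlier results known, so the count is a description. Tspan4, a membrane protein gene, went from 32.4 ± 3.44 to 70.6 ± 8.12 CPM, Lonrf3 from 46.8 ± 5.74 to 106 ± 16.0 CPM and Tsc22d3, which glucocorticoids also induce, from 195 ± 35.9 to 432 ± 40.5 CPM. Usp2, whose known rhythm follows that of Dbp, was at 9.40 ± 1.63 and 6.88 ± 1.12 CPM and did not pass (edgeR adjusted p = 0.0820).

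**Figure D5:**
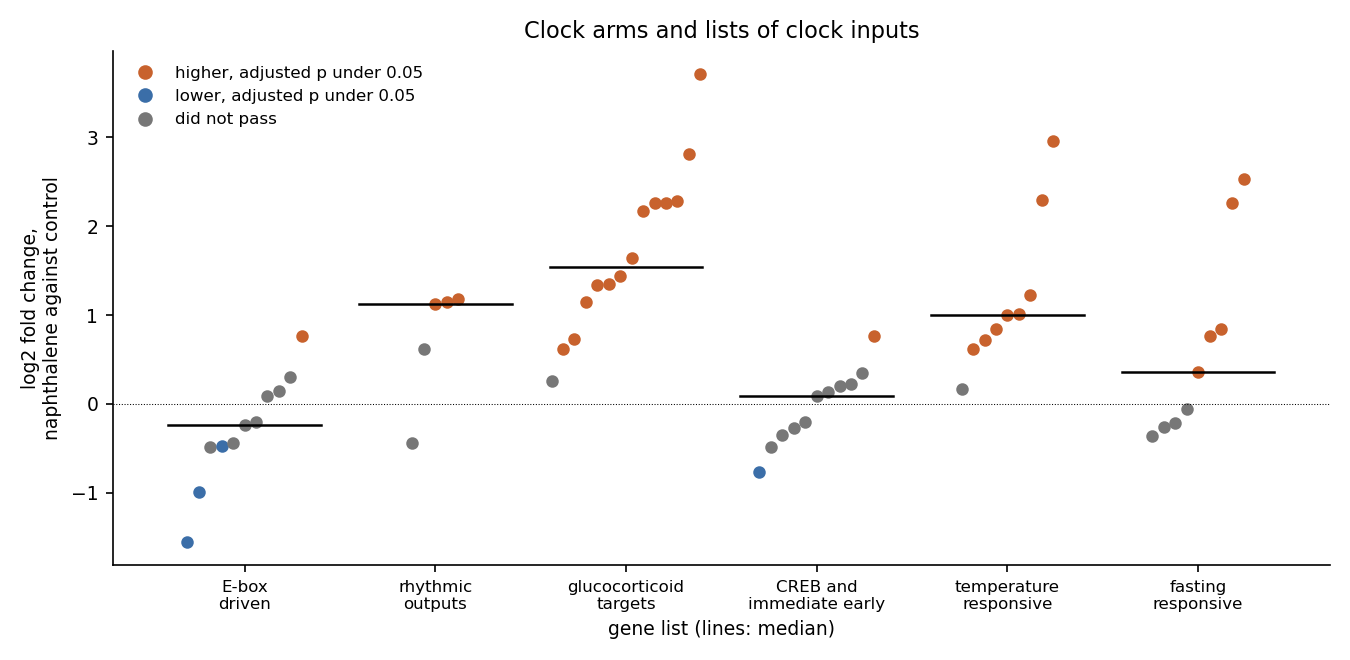
Log2 fold change, naphthalene against control (y axis), of each tested gene in 6 lists (x axis), with the median as a line. Orange and blue points passed as higher or lower at an edgeR adjusted p of 0.05, and grey points did not. Of the glucocorticoid targets 13 of 14 are orange. The CREB and immediate early genes lie around 0 with a median of 0.08, with 1 orange and 1 blue. The difference between lists was not tested.

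Markers of several cell types also differed between the groups. Of all tested genes 14.1% passed as higher and 14.6% as lower, and the counts here stand beside these shares. Of 7 club cell markers 6 fell, with summed levels of 6042 to 11802 CPM in controls and 1937 to 4135 CPM after naphthalene, and of 7 ciliated cell markers 6 fell (642 to 924 and 114 to 239 CPM). All 5 T cell, 4 B cell and 4 NK cell markers tested fell. Neutrophil markers summed to 41.6 to 336 CPM in controls, with control 3 highest, and to 155 to 441 CPM after naphthalene, and 1 of 3 passed as higher. Endothelial, fibroblast and smooth muscle markers passed as lower in 1 of 5, 1 of 5 and 0 of 4 genes by edgeR. At an unadjusted p of 0.05, 2 genes in each of these lists were lower, and 1 fibroblast gene was higher. Of alveolar type 1 markers 3 of 5 passed as higher and of alveolar type 2 markers 2 of 6. Of the macrophage markers tested, 1 of 4 passed as lower. The part of these shifts in the clock gene values was not tested.

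Genes whose profile across the 8 libraries lay closest to that of a member were found by the root mean square difference of log2 CPM after centring each gene on its mean, over 14191 other tested genes. Nearest to Cry1 were Plat, the gene of tissue plasminogen activator (0.072), and Taldo1, a pentose phosphate pathway gene (0.095), which rose by 1.24 and 1.26 on the log2 scale. Nr1d1 lay closest to Fcer2a, a B cell receptor for IgE (0.15), and Hpse2 (0.158), with log2 fold changes of -1.64 and -1.62. Close to Dbp was Fcho1 (0.172), with a log2 fold change of -0.86. Slc25a29 and Kremen2 were nearest to Per1 (0.132 and 0.154), and Nudt14 and Vamp1 to Per3 (0.094 and 0.104). Members that did not pass had nearer neighbours, such as Ap3m1 for Clock (0.030), Guf1 for Nr1d2 (0.040) and Pym1 for Cry2 (0.067). For Clock, Nr1d2 and Cry2 the root mean square deviation from the mean was 0.199, 0.213 and 0.207. It was 0.614 for Cry1 and 0.868 for Nr1d1. Distances are not scaled by this spread, so flat profiles give small ones. Within the clock genes alone, Cry1 was nearest to Nfil3 (0.176), and Nr1d1 and Dbp were nearest to each other (0.355). Such distances describe these 8 libraries and largely follow the group difference.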

How the data were processed

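Total RNA libraries were made with a stranded kit after DNase digestion, per the labels' protocols, from 4 control and 4 naphthalene lungs. The authors deposited raw read counts per gene symbol, whole numbers with a different total in each library. Build mm39 is named, per the submitters' processing notes, with the tools featureCounts 2.0.6, HISAT2 2.2.1, edgeR 4.2.1 and Trim Galore 0.6.7. No source used here states the strand setting or the annotation.

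Counts were tested on the whole table in R 4.3.3 with edgeR 4.0.16 (TMM, filterByExpr with minimum count 10 and total 15, quasi-likelihood test, group only), with Benjamini-Hochberg adjustment at 0.05. Each SE is that of the difference between mean log2 CPM values (prior count 2). Alternatives used limma 3.58.1 voom, DESeq2 1.42.0, other scalings and filters, a replicate block and libraries left out. The test was checked on simulated data. The labels do not say whether mice shared litters or batches. Libraries of a group were compared in pairs for sampling noise: chi-square over its degrees of freedom was 5.75 to 51.2, far above 1. They thus differed by more than repeat sequencing of the same library would give. Each mouse was counted as a replicate, and this check cannot show whether mice shared litters or batches. Total counts limit precision, and 0 columns belonged to other samples.

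The members and all lists were chosen with earlier results of these data known. Named genes are the members, the other clock genes, Thra, up to 4 genes of each list by smallest p among those past the test (up to 2 where none passed), and the 2 nearest profiles per member. Cirbp, Myh6, Acta1 and Ckm were named after their values were seen. Some genes that enter the counts are not reported here. Chromosomes, promoters and exon lengths come from RefSeq and GENCODE M21 on GRCm38, which differs from the build of the counts.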

Additional observations from a re-analysis of the deposited data

Results flagged for a closer look

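Per1 in control 2, at 54.8 CPM, lay far below the other 3 controls at 96.4 to 103 CPM. It was 1 of 16 combinations of a member and a group that were screened for a sample apart from the rest, and chance alone marks about 1 in 20. Without control 2, Per1 still passed as higher after naphthalene.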

How the results depend on the processing

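Over 18 alternative fits the signs of Cry1, Per1, Nr1d1, Dbp and Per3 did not change, and Cry1, Per1, Nr1d1 and Dbp passed in every one. Their log2 fold changes ranged from 0.999 to 1.33 for Cry1, 0.58 to 0.92 for Per1, -1.93 to -1.41 for Nr1d1 and -1.31 to -0.84 for Dbp. Members past the threshold numbered 2 to 3 higher and 2 to 4 lower. The number of other clock genes lower, 0 in the edgeR fit, was 1 with upper quartile scaling, with no filter, with limma voom, with DESeq2 and without control 3 and naphthalene 1, and 2 with quality weights. Leaving out 1 library gave 0 to 2 of them. The number of members without overlap between groups was 3 to 5 when 1 library was left out, and the 5 arose without control 3 or naphthalene 4. Quality weights also let Nr1d2 pass as lower (log2 fold change -0.34, adjusted p = 0.00640), in a fit that called 6503 of all 14192 genes against 4075 by edgeR. The cause was not tested. Replicate numbers are shared between groups in the titles, and the deviations of same-numbered libraries correlated at 0.287, 0.033, 0.184 and -0.093, not all above 0.1, so the numbers were not taken as pairs. With the replicate block 2 members were higher and 3 lower, as without it, and 4363 genes were called in all. All 3 paralogue ratios kept their direction without any 1 library and with a prior count of 0.5, with exact permutation p-values adjusted over the pairs of up to 0.0571 when 1 library was left out.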
